A study of Mus musculus with 4 samples.

Results

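The S100 calcium-binding protein family was followed through 8 of its genes, S100a1, S100a4, S100a6, S100a8, S100a9, S100a10, S100a11 and S100a13, out of 17 S100 genes and 23284 gene symbols in the expression tables. The genes were taken by symbol, and they had been picked with their levels in these same libraries known. The contrast between the populations is therefore given for them as a description, with no test behind it. RNA came from 4 libraries of CD4 T cells, the helper lineage, from the spleens of BALB/c mice, an inbred strain. Every library passed through the same Th1 culture, which drives helper cells toward making interferon-gamma. The medium held IL-2 at 15 ng/ml and IL-12 at 10 ng/ml, and the culture lasted 4 days by one label and 5 by another. A cell sorter then split the cultures into CCR7hiCD137lo cells (2 libraries) and CCR7loCD137hi cells (2 libraries). The receptor CCR7 guides T cells into lymph nodes, and CD137 (4-1BB) appears on T cells after activation. The labels used here give no genetic alteration, sex or age, and do not say whether the libraries numbered 1 and 2 came from separate mice or cultures, so the spread between them may be technical.

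S100 proteins are small calcium sensors built from a pair of EF hands, the helix-loop-helix motif that binds calcium. Most form dimers, and on binding calcium they expose a surface that grips partner proteins, among them annexins and cytoskeletal motors. In T cells, S100a4 and S100a6 are commonly counted among genes of effector and memory cells, whereas S100a8 and S100a9, which together form calprotectin, are best known from neutrophils and monocytes.

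The genes lie in 2 blocks on mouse chromosome 3 (build mm10). The first spans 184658 bases from S100a1 to S100a9, and S100a11 starts 2824804 bases further on, followed after 28828 bases by S100a10. S100a1 and S100a13 point away from each other with only 104 bases between their start sites. The sequences below were chosen because the genes behind them gave the contrasts described later, a wide one for S100a4 and S100a6, a narrower one for S100a11, and values for the adjoining S100a1 and S100a13 that separated the populations in the first and overlapped in the other. They come from the RefSeq promoter table of GRCm38.p6, in which 7 of the 8 genes had an entry. Capitals mark matches, on either strand, to the TATA box letters TATAAA, the letters TGANTCA bound by AP-1 factors, or the letters GGGCGG bound by Sp1 factors. The first 3 are the 200 bases before the start site, on the plus strand, at chr3:90603570-90603769, chr3:90612694-90612893 and chr3:93520296-93520495, and the last is the stretch between the start sites of S100a1 and S100a13, plus strand, at chr3:90514331-90514434.
S100a4: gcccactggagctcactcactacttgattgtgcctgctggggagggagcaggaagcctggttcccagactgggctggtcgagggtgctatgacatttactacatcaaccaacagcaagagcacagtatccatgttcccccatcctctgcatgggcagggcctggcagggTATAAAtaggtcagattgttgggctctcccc
S100a6: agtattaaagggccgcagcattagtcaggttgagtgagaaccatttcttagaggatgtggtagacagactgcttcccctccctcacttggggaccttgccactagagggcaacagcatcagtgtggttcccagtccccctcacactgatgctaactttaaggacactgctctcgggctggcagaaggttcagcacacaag
S100a11: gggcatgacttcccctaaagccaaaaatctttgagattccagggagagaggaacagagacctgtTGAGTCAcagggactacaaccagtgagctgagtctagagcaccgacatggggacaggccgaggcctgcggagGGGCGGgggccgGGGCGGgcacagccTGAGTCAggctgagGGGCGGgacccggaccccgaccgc
S100a1 to S100a13: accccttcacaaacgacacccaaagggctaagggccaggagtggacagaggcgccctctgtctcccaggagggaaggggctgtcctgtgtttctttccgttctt

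The S100a4 sequence held TATAAA beginning 31 bases before the start site. Of all 32851 promoter windows of 300 bases in the table, 13.6% held that motif on either strand. The S100a11 sequence held TGAGTCA at 136 and at 38 bases before the start site, and GGGCGG at 64, 52 and 24 bases before it, where 7.81% and 35.7% of windows held the AP-1 and Sp1 letters. S100a8 and S100a9, both listed at 0 in these cells, also held matches, TATAAA 30 bases before the start site of S100a8, and in S100a9 TATAAA from base 1 of the transcript and GGGCGG 223 bases before it. None of these motifs was found in the windows of S100a1, S100a6 and S100a13. One further motif, TTCNNNGAA, the interferon-gamma activated site bound by STAT proteins, occurred in 8.3% of windows and in none of the 7 S100 windows. A match describes letters and is not a site of binding.

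Depth and identity of the libraries were checked first. The CCR7hiCD137lo libraries were the deeper, with replicate 1 at an estimated 20600000 fragments and replicate 2 at 13000000, while CCR7loCD137hi replicate 1 had 11600000 and replicate 2 had 6300000. Levels are FPKM, fragment numbers scaled to transcript length and library size. The genes of the sorted proteins followed the labels, with Tnfrsf9 (CD137) at 0.961 and 6.25 against 158.2 and 183.8 FPKM and Ccr7 at 93.4 and 118.4 against 39.6 and 38.2 FPKM, CCR7hiCD137lo first. The 9 T cell genes measured (Cd3e, Cd4 and others) summed to 1977 to 2242 FPKM in every library, with Thy1 the most abundant at 455.2 to 558.4 FPKM. Markers of B cells summed to 0.0917 and 0.145 FPKM in CCR7hiCD137lo and to 5.23 and 0.571 FPKM in CCR7loCD137hi, with Cd79b highest at 1.38 FPKM in CCR7loCD137hi replicate 1. Markers of CD8 T and NK cells summed to 16.3 and 31.1 against 57.4 and 48.4 FPKM, with Eomes, which CD4 cells can also express, at 9.42 and 17.2 against 26.5 and 28.5 FPKM, and Cd8a highest in CCR7loCD137hi replicate 1, at 3.68 FPKM. Klrk1 of the same list was at 4.29 and 9.38 against 16.5 and 15.5 FPKM. Cd8b1 overlapped between the populations, at 2.63 and 4.56 against 8.48 and 3.78 FPKM. Ncr1 (0 and 0 against 1.91 and 0.251 FPKM) and Klrb1c (0 and 0 against 0.389 and 0.13 FPKM) were low. The part of such cells in the S100 levels was not tested.

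S100a4 and S100a6 gave the widest contrasts of the family. S100a4 (chromosome 3, 90603770 to 90606045, plus strand), also called metastasin, binds non-muscle myosin and is secreted by some cells. CCR7hiCD137lo replicates 1 and 2 held 0.987 and 2.35 FPKM, and CCR7loCD137hi replicates 1 and 2 held 32.6 and 33.8 FPKM. The CCR7loCD137hi libraries nearly coincided, and the lower of them was 13.9 times the higher CCR7hiCD137lo library. Means were 1.67 ± 0.962 and 33.2 ± 0.866 FPKM (SD, n = 2), a difference of 3.73 (SE 0.282) in log2(FPKM + 1), CCR7loCD137hi minus CCR7hiCD137lo as in all differences given here. The added 1 understates changes of low genes, and with 0.1 or 5 in its place the difference was 4.35 or 2.53. Among 10496 genes with a mean of at least 1 FPKM, 18 had a larger positive difference.

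The S100a4 level in CCR7hiCD137lo rests on few fragments. After multiplication by each library's relative depth, its 4 FPKM values are close to whole multiples of a common step, and the fewest whole fragments that give them are 6 and 9 in CCR7hiCD137lo and 112 and 63 in CCR7loCD137hi. The step, worth 0.164 FPKM per fragment in CCR7hiCD137lo replicate 1, is close to the 0.163 FPKM expected from a transcript of 498 nt. Scaled to depth, the ratio was 33.1 between the libraries numbered 1 (exact 95% interval 14.8 to 92.3). Between those numbered 2 it was 14.4 (7.15 to 33.0). The intervals cover counting error only and take the inferred fragments and estimated depths as known. The libraries compared share only a number, and the gene was picked with this contrast known. The intervals are therefore no test of the contrast. S100a4 shares 302 exonic bases with Gm42674, a GENCODE gene model on the same strand that was not among the symbols of the tables, so fragments of these gene models cannot be told apart here.

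S100a6 (90612894 to 90614414, plus strand), calcyclin, binds annexins and the ubiquitin ligase adaptor encoded by Cacybp. Its level was 12.2 and 29.5 FPKM in the CCR7hiCD137lo libraries, replicate 1 first, against 80.4 and 79.2 FPKM in the CCR7loCD137hi libraries. As with S100a4, the CCR7loCD137hi libraries were close together while CCR7hiCD137lo replicate 2 was 2.42 times replicate 1. Means were 20.9 ± 12.2 and 79.8 ± 0.874 FPKM (SD, n = 2), a difference of 2.01 (SE 0.417). About 134 and 204 fragments lay behind the CCR7hiCD137lo values and 496 and 265 behind the others, as estimated from transcript length.

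S100a10 and S100a11 were abundant in both populations. S100a10 (93555117 to 93564645, plus strand), p11, has lost the ability to bind calcium and forms a tetramer with annexin A2. Its level was 266.7 and 526.4 FPKM in the CCR7hiCD137lo libraries against 683.1 and 913.6 FPKM in the others, the highest level of any S100 gene in each of the 4 libraries. S100a11 (93520496 to 93526288, plus strand), calgizzarin, which binds annexin A1, reached 40.8 and 93.2 FPKM in the CCR7hiCD137lo libraries against 121.7 and 134.9 FPKM in the others. The populations did not overlap for either gene, but CCR7hiCD137lo replicate 2 came near them, since the lower CCR7loCD137hi library was only 1.3 times it for S100a10 and 1.31 times it for S100a11. The differences were 1.07 (SE 0.368) for S100a10 and 1.04 (SE 0.407) for S100a11, and the estimated fragments per library ran from 2663 to 3850 and from 261 to 440.

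S100a1 and S100a13, the head-to-head pair, gave unlike values. S100a1 (90511034 to 90514330, minus strand), best known from heart and skeletal muscle, where it tunes calcium handling, reached 5.42 and 15.7 FPKM in the CCR7hiCD137lo libraries against 21.7 and 23.5 FPKM in the CCR7loCD137hi libraries. Its populations did not overlap, with means of 10.6 ± 7.27 and 22.6 ± 1.25 FPKM (SD, n = 2) and a difference of 1.19 (SE 0.475). S100a13 (90514435 to 90524581, plus strand), which takes part in the release of proteins that lack a signal peptide, such as fibroblast growth factor 1 and interleukin-1 alpha, had 99.5 and 119.9 FPKM in the CCR7hiCD137lo libraries against 102.4 and 124.7 FPKM in the CCR7loCD137hi libraries. Its populations overlapped, the libraries numbered 2 were the higher in both, and the fitted difference was 0.05 (SE 0.168). That difference took the other sign when FPKM was rescaled without short RNA genes (-0.01) and when CCR7hiCD137lo replicate 1 or CCR7loCD137hi replicate 2 was left out (-0.09 each). The 104 bases printed above separate these start sites. Whether the strand was used in counting is not given in the sources used here, although the GENCODE exons of S100a1 and S100a13 share no base.

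S100a8 (90669071 to 90670034, plus strand) and S100a9 (90692633 to 90695691, minus strand), the calprotectin subunits, were listed at 0 in all 4 libraries. At the depth of CCR7hiCD137lo replicates 1 and 2 and CCR7loCD137hi replicates 1 and 2, 3 fragments would have stood at 0.509, 0.808, 0.903 and 1.66 FPKM for S100a8, and at 0.457, 0.724, 0.809 and 1.49 FPKM for S100a9, the limits that a count of 0 allows. Of 13 neutrophil markers in the tables, 9 were also at 0 in every library, including Ngp, Camp, Lcn2, Elane and Retnlg. The summed neutrophil markers were 0.429 and 2.48 FPKM in CCR7hiCD137lo and 1.42 and 7.02 FPKM in CCR7loCD137hi, with Cxcr2 the highest, at 0.392 and 2.48 against 0.784 and 6.78 FPKM. The other 3 detected were Ltf (0 and 0 against 0.304 and 0.124 FPKM), Mpo (0.0206 and 0 against 0.183 and 0.0674 FPKM) and Mmp9 (0.0165 and 0 against 0.146 and 0.0537 FPKM). The 9 monocyte and macrophage markers summed to between 0.793 and 4.03 FPKM, mostly Cd68, a lysosomal gene, at 1.5 and 0.668 against 2.35 and 3.14 FPKM, with Csf1r at 0 throughout. Dendritic cell markers summed to 0.196 and 22.8 against 34.5 and 52.2 FPKM, with Batf3, a factor that activated T cells also express, the highest, at 0.0953 and 22.7 against 33.9 and 51.4 FPKM. Zbtb46 (0.0267 and 0.129 against 0.414 and 0.648 FPKM) and Xcr1 (0.0739 and 0.018 against 0.121 and 0.223 FPKM) were also higher in both CCR7loCD137hi libraries, Itgax was detected in 1 library (0.056 FPKM, CCR7loCD137hi replicate 1), and Flt3, Clec9a and Siglech were at 0 throughout. The part of cells with these neutrophil, monocyte or dendritic cell markers in the levels of the detected S100 genes was not tested.

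**Figure D1:**
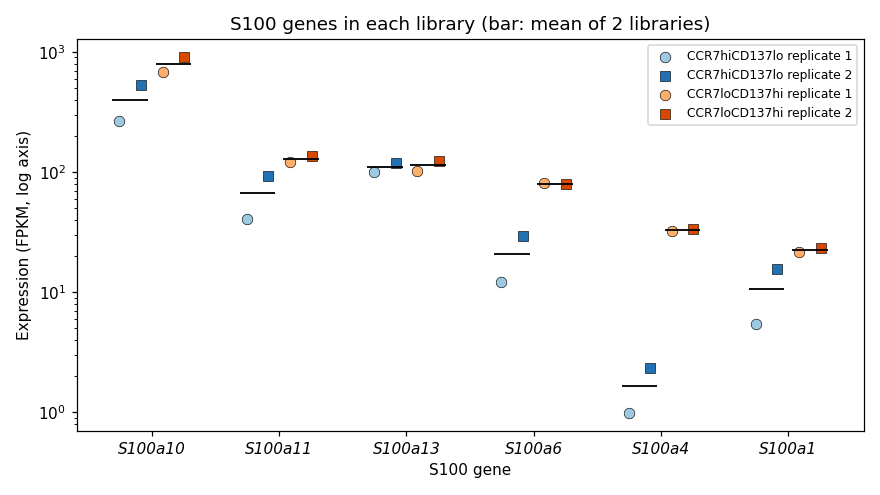
Expression of the 6 detected S100 genes in FPKM on a log axis, with a point for each of the 4 libraries and a bar at the mean of each population. S100a4 shows the widest separation, from 0.987 and 2.35 to 32.6 and 33.8 FPKM, S100a13 shows none, and CCR7hiCD137lo replicate 1 is the lowest library for every gene.

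For 6 of the 8 genes the mean was at least 1 FPKM. In 5 of these both CCR7loCD137hi libraries stood above both CCR7hiCD137lo libraries, where 16.6% of all genes tested did so and 21.5% lay wholly the other way, and in S100a13 they overlapped. All 6 had a fitted difference above 0, as had 47.9% of all genes, and 5 had a difference over 1, as had 2.76%. Their median difference was 1.13, against -0.012 over all genes. Because the genes had been picked with this contrast known, these counts describe the list and support nothing further. For the same reason nothing is read from limma's test, which called none of the 6 at an adjusted p of 0.05 (6 of all 10496 genes, 0.0572%, or 0.0476% as higher and 0.00953% as lower in CCR7loCD137hi), with 3 of the 6 at an unadjusted p under 0.05 (8.13% of all genes). In bulk RNA, fewer cells that express a gene and less RNA in each cell cannot be told apart.

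**Figure D2:**
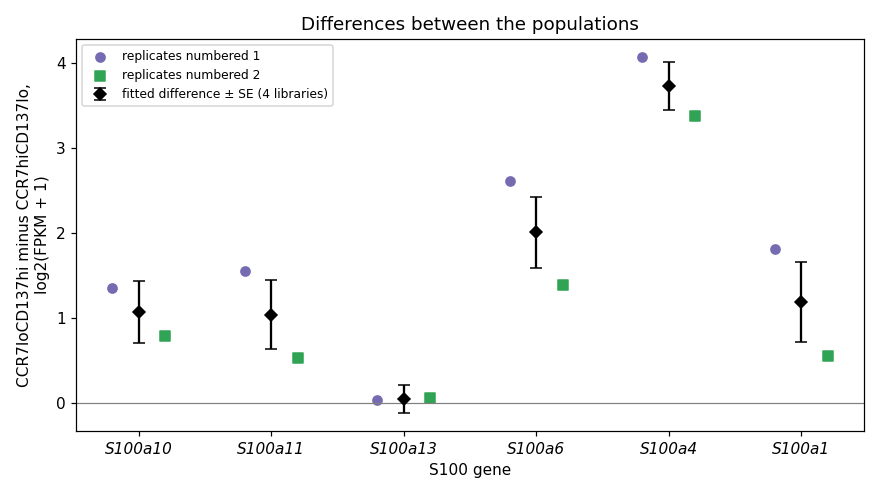
Difference between CCR7loCD137hi and CCR7hiCD137lo in log2(FPKM + 1) for each detected S100 gene, with the fitted value ± SE as diamonds and the differences between libraries of the same number as circles (1) and squares (2). For every gene but S100a13 the difference is wider between the libraries numbered 1, for example 2.62 against 1.39 for S100a6.

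The genes that separated the populations also differed between the CCR7hiCD137lo libraries. CCR7hiCD137lo replicate 2 was 2.90 times replicate 1 for S100a1, 2.42 times for S100a6, 2.38 times for S100a4, 2.28 times for S100a11 and 1.97 times for S100a10. For S100a13 the ratio was 1.21. On the log2(FPKM + 1) scale the median difference between these libraries was 1.07 over the 6 genes and 0.079 over all genes, of which 2.5% differed by more than 1 in that direction. The CCR7loCD137hi libraries were closer, with ratios of replicate 2 to replicate 1 from 0.985 for S100a6 to 1.34 for S100a10. Tnfrsf9, the gene of the sorted marker CD137, was 6.25 FPKM in CCR7hiCD137lo replicate 2 and 0.961 FPKM in replicate 1, and its part in the S100 levels was not tested.

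The contrast varied with the library pair. Between the libraries numbered 1, the ratio of CCR7loCD137hi to CCR7hiCD137lo was 33.0 for S100a4, 6.58 for S100a6, 4.00 for S100a1, 2.98 for S100a11 and 2.56 for S100a10. Between those numbered 2, the ratios were 14.4, 2.68, 1.5, 1.45 and 1.74 in the same order. S100a13 stayed near 1 in both, at 1.03 and 1.04. Without CCR7hiCD137lo replicate 1, which leaves 1 library in that population, the fitted differences were 0.50 for S100a1, 0.45 for S100a11, 0.58 for S100a10, 1.40 for S100a6 and 3.35 for S100a4. Without CCR7hiCD137lo replicate 2 they were 1.88, 1.63, 1.56, 2.61 and 4.11 in that order.

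The order of levels within the family shifted between the populations. In CCR7hiCD137lo it ran S100a10, S100a13, S100a11, S100a6, S100a1 and S100a4. The ranges of S100a6 (12.2 to 29.5 FPKM) and S100a1 (5.42 to 15.7 FPKM) overlapped, though S100a6 was the higher within each library. In CCR7loCD137hi it ran S100a10, S100a11, S100a13, S100a6, S100a4 and S100a1. The ranges of S100a11 (121.7 to 134.9 FPKM) and S100a13 (102.4 to 124.7 FPKM) overlapped, though S100a11 was the higher within each library. FPKM is scaled to transcript length, but the annotation used is not given, and S100a4 shares 302 exonic bases with Gm42674. Close ranks in these orders are therefore uncertain. All S100 genes together summed to 426.3 and 789.1 FPKM in CCR7hiCD137lo and to 1044 and 1313 FPKM in CCR7loCD137hi. S100a10 made up 62.6% to 69.6% of that sum in every library. S100a4 made up 0.231% and 0.297% of it in CCR7hiCD137lo and 3.12% and 2.58% in CCR7loCD137hi, while S100a13 made up 23.3% and 15.2% and then 9.81% and 9.50%.

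The other S100 genes of the blocks were at or near 0. Between S100a13 and S100a4, the genes S100a14, S100a16, S100a2 and S100a3 reached at most 0.907 FPKM, and S100a16, S100a7a and S100z were at 0 in all 4 libraries. S100a3, which ends just upstream of S100a4, had 2 and 6 fragments in CCR7hiCD137lo and 1 and 2 in CCR7loCD137hi. S100a5, between S100a4 and S100a6, reached 0.696 FPKM in CCR7loCD137hi replicate 2 and was at 0 elsewhere. S100g, encoding the vitamin D-dependent calbindin, had 1 and 3 fragments against 2 and 3, and S100b reached at most 0.108 FPKM. S100pbp, the gene of a nuclear protein that binds S100P, had 15.5 and 19.4 FPKM in the CCR7hiCD137lo libraries against 13.5 and 14 FPKM in the others.

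The genes next to the blocks were either expressed in all 4 libraries or near 0. Upstream of S100a1, Ilf2, a subunit of a double-stranded RNA-binding complex, stood at 46.0 and 40.4 against 45.8 and 33.8 FPKM, and Ints3, an Integrator subunit, at 22.0 and 21.6 against 22.0 and 18.9 FPKM, while 2500003M10Rik, the gene nearest to S100a1, was at 61.0 and 57.4 against 48.2 and 50.4 FPKM. Around S100a11 and S100a10, the epidermal genes Hrnr, Rptn and Tchhl1 were at 0 in every library, and Tchh reached 0.0152 FPKM in CCR7loCD137hi replicate 1. These neighbours were chosen by position after the values were seen.

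**Figure D3:**
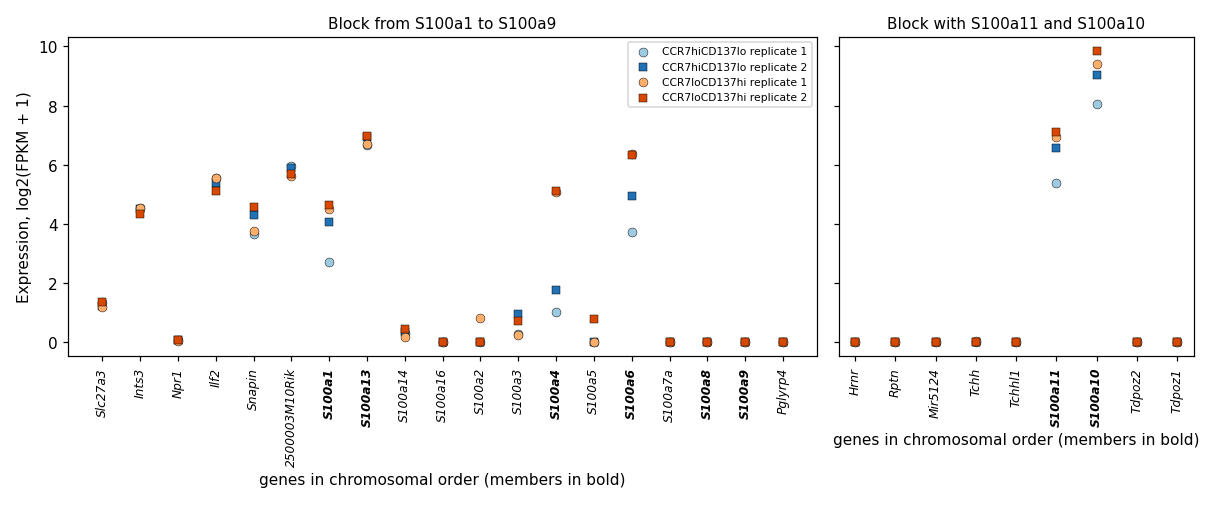
Expression in log2(FPKM + 1) of the S100 genes and their neighbours in chromosomal order, with a point for each of the 4 libraries and the 8 family genes in bold. Genes with clear expression and genes near 0 lie interleaved, with S100a5 between S100a4 and S100a6 at no more than 0.696 FPKM, and S100a8 and S100a9 at 0.

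Among the tested genes of proteins that bind S100 proteins or receive them outside the cell, Ahnak and Anxa2 had the largest differences. The annexin genes Anxa6 and Anxa11 overlapped between the populations. Anxa2, the partner of S100a10, had 48.9 and 217.7 FPKM in the CCR7hiCD137lo libraries against 276.3 and 579.5 FPKM in the others (difference 1.94, SE 0.798). Ahnak, a giant scaffold that binds the S100a10 and annexin A2 complex, had 0.772 and 5.56 against 10.0 and 20.7 FPKM (difference 2.18, SE 0.719). Both had the same order of the 4 libraries as S100a10, from CCR7hiCD137lo replicate 1 at the bottom to CCR7loCD137hi replicate 2 at the top, as did Anxa1, the partner of S100a11 (0.975 and 1.74 against 3.67 and 4.90 FPKM). That order was found in 4 of the 6 S100 genes, in 4 of the 15 partner genes tested and in 7.7% of all genes. The order is that of S100a10, itself a picked gene, and the partner list was chosen with earlier results of these data known. These counts therefore describe the lists and support nothing further.

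Bsg, basigin, a membrane glycoprotein reported to bind S100a9, stood at 186.9 and 242.3 against 302.1 and 383.4 FPKM. Myh9, the non-muscle myosin heavy chain that S100a4 binds, lay the other way, at 119.6 and 115.2 against 86.6 and 79.6 FPKM. Anxa6 (264.3 and 305.9 against 257.6 and 281.5 FPKM), Cyba, an NADPH oxidase subunit (288.5 and 278.8 against 296.2 and 263.7 FPKM), and Cacybp (62.5 and 42.8 against 58.3 and 35.0 FPKM) overlapped between the populations. The receptor genes were low, with Ager, encoding RAGE, at 2.44 to 3.57 FPKM and Tlr4 at 0.303 to 0.968 FPKM. Of 27 partner genes, 15 were tested, and limma called none of them in either direction (0.0572% of all genes). Of the 15, 4 had an unadjusted p under 0.05 (8.13% of all genes) and 6 had a difference above 0 (47.9%). The median was -0.03, against -0.012 over all genes. Anxa1, Anxa11 and Myh9 were named after their values were seen, as were Ager, Tlr4 and Cacybp.

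Other calcium sensors with EF hands were counted beside the S100 genes. Of 15 tested, limma called none (0.0572% of all genes), none had an unadjusted p under 0.05 (8.13%) and 7 lay above 0 (47.9%). The median was -0.01, against -0.012 over all genes, so this list lay near the share of all genes. The calmodulin gene Calm2 stood at 186.9 and 159.0 against 164.8 and 130.0 FPKM. Lcp1, the actin bundler L-plastin, was the most abundant, at 339.6 and 339.8 against 330.4 and 315.6 FPKM, and Capns1, the small calpain subunit, stood at 120.0 and 161.6 against 143.0 and 185.7 FPKM. Swap70, a membrane-associated signalling protein, had the largest difference of this list, at 1.60 and 4.94 against 7.31 and 7.37 FPKM, followed by Ncs1, neuronal calcium sensor 1, at 1.37 and 1.68 against 2.59 and 1.98 FPKM.

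A further list held genes often described with S100a4 and S100a6 in effector and memory T cells. Of 12 tested, limma called none (0.0572% of all genes), 5 had an unadjusted p under 0.05 (8.13%) and 11 lay above 0 (47.9%). The median was 0.46, against -0.012 over all genes. This list was chosen with earlier results of these data known, so the counts describe it and support nothing further. Lgals3, galectin-3, stood at 5.64 and 14.2 against 82.9 and 82.2 FPKM (difference 3.06, SE 0.412, limma adjusted p = 0.259), and Lgals1, galectin-1, at 294.1 and 510.0 against 909.7 and 866.9 FPKM. Vim, vimentin, stood at 907.6 and 1075 against 1286 and 1819 FPKM. The thymosins Tmsb4x (5105 and 5513 against 4808 and 5728 FPKM) and Tmsb10 (1314 and 1635 against 1277 and 1737 FPKM) overlapped between the populations.

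**Figure D4:**
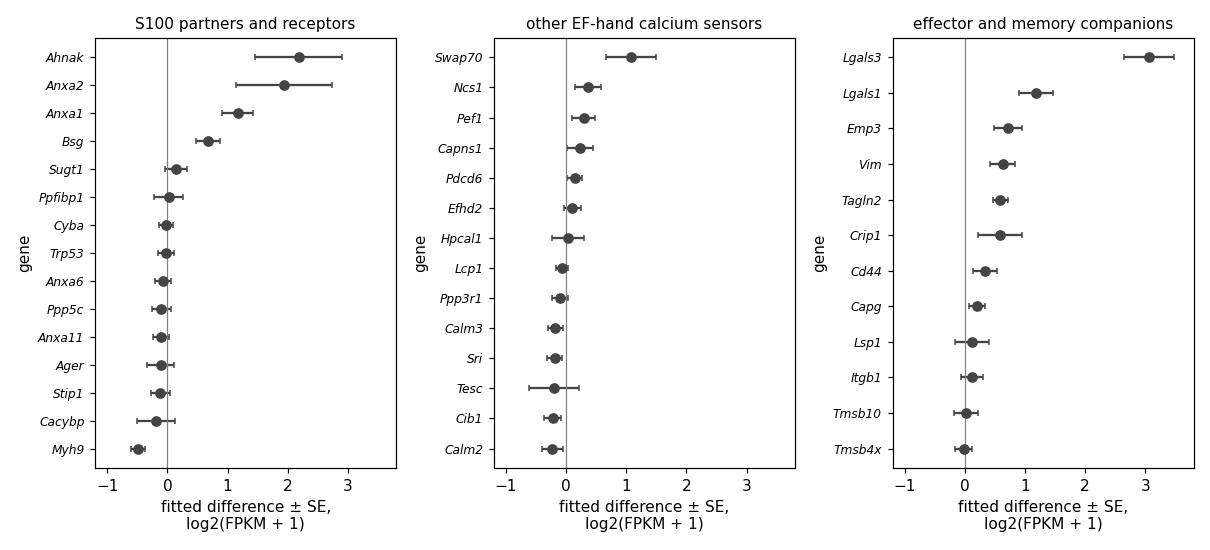
Fitted difference ± SE in log2(FPKM + 1), CCR7loCD137hi minus CCR7hiCD137lo, for the tested genes of 3 lists, less 1 of the EF-hand sensors. Ahnak (2.18), Anxa2 (1.94) and Lgals3 (3.06) lie farthest to the right, and the EF-hand sensors gather around 0 apart from Swap70 (1.08).

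Profiles over the 4 libraries were compared by the Euclidean distance between centred log2(FPKM + 1) values, among genes of other families with a mean of at least 5 FPKM. The points are 4 libraries of 2 populations, so the distances are a description. S100a1 and S100a11 lay 0.21 apart and shared their 3 nearest genes, Anxa4, Swap70 and Fah (0.104 to 0.187). S100a10 lay 0.24 from S100a11 and nearest to Fam71b, Tnfsf9, which encodes the ligand of CD137, and Gfi1 (0.161 to 0.199). S100a6 lay nearest to Lrrc32, encoding GARP, a surface protein of activated regulatory T cells, at a distance of 0.107, with Lrrc32 at 3.99 and 9.55 against 28.8 and 26.8 FPKM, then to Nedd4 (0.234) and P2ry14 (0.307). The values were not scaled, so genes with wide differences tend to lie far from others and flat genes close together. S100a4, with the widest contrast of the family, lay nearest to Pglyrp1 (0.632), Mt2 (0.651) and Lgals3 (0.741). S100a13 was matched within 0.013 by Tiprl, Ipmk and Ehmt2, whose levels likewise overlapped between the populations.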

How the data were processed

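The FPKM values are the authors' own, deposited as 1 table per library, which per the file headers has the columns of a Cufflinks gene table. Per the labels' protocols, TRIzol was used for RNA and a stranded TruSeq mRNA kit for the libraries. Per the submitters' processing notes, the build was mm10 and the tools were Cufflinks 2.0.2, TopHat 1.3.2 and Bowtie 0.12.8. Annotation, filters and use of strand: not given in the sources used here. Where a symbol had several of the 23746 entries, the entry with the highest mean was used. Starts from the files were raised by 1 to count from 1.

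Depth was estimated from low values (under 0.3 FPKM), many of which are whole multiples of what 1 fragment is worth. Of their ratios to CCR7hiCD137lo replicate 1, 56.0%, 57.0% and 55.1% (CCR7hiCD137lo replicate 2, CCR7loCD137hi replicates 1 and 2) matched, to 0.002 in natural log, a ratio of whole numbers up to 5. This gave relative depths of 0.631, 0.564 and 0.306. Absolute depth came from 709 genes with a single RefSeq-linked GENCODE transcript and an assumed fragment of 200 nt, and is approximate.

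All 10496 genes with a mean of at least 1 FPKM were fitted with limma 3.58.1 (R 4.3.3) after adding 1 and taking log2 (variance trend, two-sided, Benjamini-Hochberg adjustment over all genes, threshold 0.05; 2 residual and 2.54 prior degrees of freedom). Tables and plots were made in Python 3.11.15 (matplotlib 3.10.9, pandas 2.3.3, numpy 2.4.6). The S100 genes, lists and alternatives were chosen with earlier results of these data known. Besides the 8 genes, the rule for genes named in the text took other S100 genes of at least 1 FPKM, the 4 most expressed and the 2 with the largest difference in the partner, EF-hand and companion lists, the most expressed of each marker list, and the 3 nearest profiles of each tested S100 gene. Of the genes this rule took, 1 EF-hand sensor is not reported here.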

Additional observations from a re-analysis of the deposited data

How the results depend on the processing

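S100a1, S100a4, S100a6, S100a10 and S100a11 kept a difference above 0 under all 13 alternatives, with ranges of 0.50 to 1.88, 2.53 to 4.35, 1.40 to 2.61, 0.58 to 1.56 and 0.45 to 1.63. S100a13 ranged from -0.09 to 0.19. The number of tested S100 genes above 0 was 6, 5 after rescaling without short RNA genes, and 5 to 6 with a library left out, where the lone library of a population is assumed to vary like the others. The limma adjusted p of S100a4 was 0.0876 in the main fit. It ran from 0.0396 to 0.313 over the alternatives that kept all 4 libraries. The gene was picked with this contrast known, so nothing is read from these values.

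The number of genes called over all genes was 6. It was 1 with no filter on low values, 2 without a variance trend, 2 with quantile normalization, 3 after rescaling without short RNA genes, 42 with the replicate block, and 12 to 30 with a library left out. The causes were not tested. Same-numbered libraries deviated together across genes (r = 0.21), but with 2 pairs the libraries share only a number, and the block is given as an alternative. Of 35 other named genes tested, 9 changed sign in some alternative, among them Cxcr2 (0.76, and -0.30 without CCR7loCD137hi replicate 2) and Tmsb10 (0.02, and -0.15 with quantile normalization). Depth limits S100a4 in CCR7hiCD137lo, where an inferred 6 and 9 fragments lie behind the values, and S100a8 and S100a9, which were not detected.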
